A study of Drosophila melanogaster with 4 samples.

Results

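The 8 genes described here build, arrange and cut chitin in Drosophila: kkv, mmy, knk, serp, verm, obst-A, obst-E and Cht2. They were chosen by name, each has 1 row in a deposited table of 13990 genes, and all 8 passed the filter on low values, an average of at least 1 FPKM. RNA came from wing imaginal discs, the larval sacs that become the adult wing and notum, dissected from wandering third-instar larvae kept at 25 °C. There was 1 library for each of 4 genotypes. The first carried GFP, Yki and Tai (Yki+Tai), the second GFP, Yki and a tai inverted repeat, a construct for RNA interference (Yki+Tai-IR), the third GFP and Yki (Yki), and the last GFP alone (GFP). All 4 expressed their transgenes under the en driver, which is active in the posterior compartment, so every RNA pool also held anterior cells without transgene expression. Discs of a genotype were pooled; the protocol in the labels gives 80 to 100 discs, naming en>GFP and en>GFP,Tai. Yki (Yorkie) is the transcriptional coactivator of the Hippo growth pathway, and Tai (Taiman) is a coactivator of the receptor for ecdysone, the steroid hormone of moulting.

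Chitin is a polymer of N-acetylglucosamine that insect epithelia secrete at their apical side, into the cuticle and into the lumen of the trachea. Its precursor is UDP-N-acetylglucosamine, which the synthase at the plasma membrane joins into chains. Other proteins then protect the chains, remove acetyl groups, bind them into layers, or cut them when a cuticle is replaced. Imaginal discs are epithelia that secrete cuticle at metamorphosis, when ecdysone is high.

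The unit throughout is FPKM, fragments scaled to transcript length and to the size of the library. Levels of different genes can therefore be set side by side. The steps between low FPKM values correspond to depths of 12.5 M fragments in Yki+Tai, 8.30 M in Yki+Tai-IR, 9.57 M in Yki and 8.15 M in GFP. Each genotype has 1 library, so there is no replicate check of any value, and no test or p-value was possible. Ratios are given with a 95% interval (exact Clopper-Pearson, on estimated fragments), which covers counting error only and not variation between pools of discs. A gene was counted as higher or lower when its log2(FPKM + 1) differed by 1 or more, which is called 2-fold here. Genes that mark the wing disc epithelium (vg, nub, rn, ap and wg) were well above 0 in every library. Of these, vg was at 46.1 FPKM in Yki+Tai, 42.2 in Yki+Tai-IR, 53.6 in Yki and 44.0 in GFP. They were not all level. All 5 were lower in Yki+Tai than in Yki, from 0.574 times for ap (0.538 to 0.612) to 0.9365 times for rn (0.883 to 0.994). In Yki, rn was at 1.81 times GFP (1.67 to 1.95). Transcript of yki stood at 4535 FPKM in Yki+Tai, 2563 in Yki+Tai-IR, 5034 in Yki and 71.5 in GFP. Transcript of tai was at 1260.3 FPKM in Yki+Tai, 22.9 in Yki+Tai-IR, 25.0 in Yki and 27.1 in GFP. For tai, Yki+Tai-IR was at 0.916 times Yki (0.855 to 0.982). For yki it was at 0.509 times, so these 2 libraries also differed in the level of the yki transcript.

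The 8 genes lie on 4 chromosome arms in dm6. On 3R are kkv (FBgn0001311, 5378093 to 5392866, minus strand) and knk (FBgn0001321, 10122365 to 10125664, minus strand). On 2L are mmy (FBgn0259749, 6468538 to 6473904, minus strand) and obst-E (FBgn0031737, 5762553 to 5766142, minus strand). On 3L are Cht2 (FBgn0022702, 1752328 to 1755934), verm (FBgn0261341, 19690033 to 19695260) and serp (FBgn0260653, 19700977 to 19708015), all on the minus strand. The gene obst-A (FBgn0031097, 20239855 to 20243209, plus strand) is on the X. The deacetylase genes verm and serp are neighbours, 5716 nt apart and on the same strand. In the Ensembl annotation knk has 1 transcript and the other members 2 or 3, so an FPKM value of those sums over isoforms.

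By level, verm was the highest of the 8 in every library. The lowest was mmy in Yki+Tai-IR and obst-E in the other 3 libraries. In GFP the order was verm, Cht2, obst-A, serp, kkv, knk, mmy and obst-E. Transcript of verm exceeded that of 95.5% to 97.9% of the 7806 genes that passed the filter on low values. The sum over the 8 genes was 1172 FPKM in Yki+Tai, 869 in Yki+Tai-IR, 809 in Yki and 755 in GFP.

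**Figure D1:**
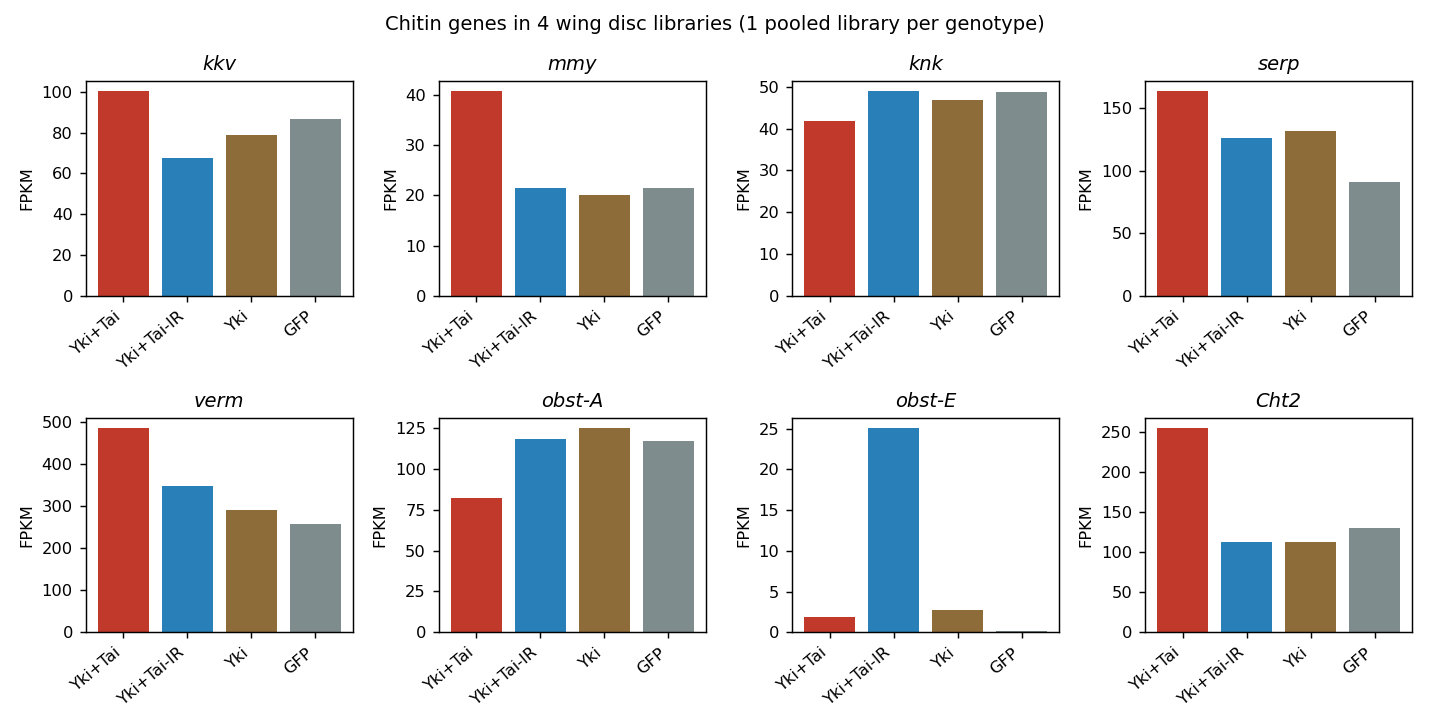
FPKM (vertical axis, from 0, scaled for each gene) of the 8 chitin genes in the Yki+Tai, Yki+Tai-IR, Yki and GFP libraries; each bar is 1 pooled library, with no error bar because there are no replicates. For mmy and Cht2 the Yki+Tai bar stands apart from 3 similar ones, for obst-A it is the lowest, and for obst-E the Yki+Tai-IR bar (25.1 FPKM) is far above the others.

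Transcript of the precursor enzyme gene mmy was highest with added Tai. The gene mmy encodes UDP-N-acetylglucosamine pyrophosphorylase, the enzyme of the last step to the chitin precursor, which is also used for protein glycosylation. It stood at 40.8 FPKM in Yki+Tai, 21.4 in Yki+Tai-IR, 20.1 in Yki and 21.5 in GFP. The Yki+Tai library stood apart, and the other 3 lay between 20.1 and 21.5 FPKM. Its ratio of Yki+Tai to Yki was 2.03 (1.78 to 2.31), to Yki+Tai-IR 1.90 (1.67 to 2.18) and to GFP 1.90 (1.66 to 2.18). On the log2(FPKM + 1) scale the difference from Yki was 0.98, just short of the limit of 1.

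Transcript of the synthase gene varied less. The gene kkv encodes the chitin synthase of the cuticle and trachea, and it stood at 100.3 FPKM in Yki+Tai, 67.6 in Yki+Tai-IR, 78.7 in Yki and 86.9 in GFP. The order of these levels was Yki+Tai, GFP, Yki, Yki+Tai-IR. Its ratio of Yki+Tai to Yki was 1.28 (1.23 to 1.33), while Yki+Tai-IR was at 0.859 times Yki (0.819 to 0.901). The gap was widest between the 2 libraries with a tai construct, where Yki+Tai was at 1.48 times Yki+Tai-IR (1.42 to 1.55). The level of kkv was 2.46 times that of mmy in Yki+Tai, 3.15 times in Yki+Tai-IR, 3.91 times in Yki and 4.05 times in GFP. Transcripts of synthase and precursor enzyme thus did not keep one proportion across the libraries. The annotated span of kkv also holds CG14668, which was at 2.37 FPKM or less in every library.

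The gene knk, whose membrane-anchored product protects and arranges new chitin, was the flattest of the 8. It was at 41.9 FPKM in Yki+Tai, 49.0 in Yki+Tai-IR, 46.8 in Yki and 48.9 in GFP, with Yki+Tai the lowest and Yki+Tai-IR the highest. Yki+Tai was at 0.856 times Yki+Tai-IR (0.788 to 0.931) and 0.896 times Yki (0.826 to 0.972). For Yki+Tai-IR against Yki the ratio was 1.05 (0.960 to 1.14), an interval that includes 1. An antisense RNA gene is annotated over 1991 nt of knk, and the kit used keeps no strand information, so fragments of the pair cannot be told apart.

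The deacetylase genes serp and verm were both lowest in GFP and highest in Yki+Tai. Their products remove acetyl groups from chitin and are known from the trachea, where they limit tube length. The gene serp stood at 163 FPKM in Yki+Tai, 126 in Yki+Tai-IR, 132 in Yki and 91.1 in GFP. All 3 libraries with Yki were above GFP, and Yki+Tai-IR and Yki did not differ beyond counting error, with a ratio of 0.958 (0.904 to 1.01). Against GFP the ratios of serp were 1.79 (1.69 to 1.91) for Yki+Tai, 1.39 (1.30 to 1.48) for Yki+Tai-IR and 1.45 (1.36 to 1.54) for Yki.

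For verm the values were 486 FPKM in Yki+Tai, 349 in Yki+Tai-IR, 290.4 in Yki and 259 in GFP. Here Yki was close to GFP, at 1.12 times (1.08 to 1.17), while Yki+Tai was at 1.67 times Yki (1.62 to 1.73) and Yki+Tai-IR at 1.20 times (1.16 to 1.25). Both libraries with a tai construct, the added gene and the inverted repeat, thus lay above Yki for verm. The neighbours did not share one pattern: the larger step of serp lay between Yki and GFP, and that of verm between Yki+Tai and Yki. Within a library, verm was at 2.97 times serp in Yki+Tai, 2.77 in Yki+Tai-IR, 2.203 in Yki and 2.84 in GFP.

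The chitin-binding genes obst-A and obst-E went separate ways. The product of obst-A is a scaffold for chitin in the larval cuticle, and its transcript stood at 82.1 FPKM in Yki+Tai, 118 in Yki+Tai-IR, 125 in Yki and 117 in GFP. Yki+Tai was the lowest, at 0.658 times Yki (0.605 to 0.715) and 0.703 times GFP (0.644 to 0.769). The other 3 libraries did not differ from one another beyond counting error. With knk, obst-A was one of 2 members with its lowest value in Yki+Tai.

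The product of obst-E is a cuticular chitin-binding protein that shapes the larval body wall as it becomes the pupal case. Its transcript stood at 1.93 FPKM in Yki+Tai, 25.1 in Yki+Tai-IR, 2.80 in Yki and 0.158 in GFP. The estimated fragments behind these values were 19 in Yki+Tai, 163 in Yki+Tai-IR, 21 in Yki and 1 in GFP. Yki+Tai-IR stood apart from all other libraries, at 8.97 times Yki (5.68 to 14.9). Against Yki+Tai-IR, Yki+Tai was at 0.0771 times (0.0453 to 0.124). The ratio of Yki to GFP was 17.7, but it rests on 1 fragment in GFP and its interval runs from 2.84 to 731. Yki+Tai and Yki did not differ beyond counting error, with a ratio of 0.692 (0.352 to 1.35). By size of difference obst-E was the 31st highest of 7806 genes in Yki+Tai-IR against Yki and the 24th lowest in Yki+Tai against Yki+Tai-IR.

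Markers of other cell types also differed between the libraries. The salivary glue genes Sgs1, Sgs3, Sgs4, Sgs5, Sgs7 and Sgs8 summed to 0.653 FPKM in Yki+Tai, 13.0 in Yki+Tai-IR, 10.6 in Yki and 0.786 in GFP. Of these 6 genes, Sgs3, Sgs4, Sgs5 and Sgs7 were listed at 0 in Yki+Tai, Sgs1 in Yki+Tai-IR, Sgs3 in Yki, and Sgs7 and Sgs8 in GFP. No glue gene value rests on more than 9 estimated fragments, the number for Sgs1 in Yki. In Yki+Tai-IR, Sgs5 had 8 and Sgs7 had 7. The 5 leg disc genes Sp1, AP-2, btd, fd96Ca and fd96Cb summed to 33.0 FPKM in Yki+Tai, 114 in Yki+Tai-IR, 0.752 in Yki and 145 in GFP, with fd96Ca and fd96Cb listed at 0 in Yki. Of the 4 tracheal markers, only wat, which helps clear liquid from the tracheal tubes, had its highest value in Yki+Tai-IR, at 0.732 FPKM in Yki+Tai, 4.29 in Yki+Tai-IR, 0.807 in Yki and 2.57 in GFP. The tracheal regulator gene trh was highest in Yki+Tai, at 38.7 FPKM, with 24.9 in Yki+Tai-IR, 27.9 in Yki and 21.3 in GFP. The other 2 were highest in GFP, with dys at 2.91 FPKM in Yki+Tai, 4.59 in Yki+Tai-IR, 2.48 in Yki and 8.13 in GFP, and btl, the FGF receptor gene of the trachea, at 1.27 FPKM in Yki+Tai, 2.80 in Yki+Tai-IR, 2.15 in Yki and 3.47 in GFP. The glue gene sums of Yki+Tai-IR and Yki, 13.0 and 10.6 FPKM, lay near each other. The part of these tissues in the obst-E signal was not tested. In pooled discs, more cells of a type and more RNA per cell cannot be told apart.

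Cht2 encodes a chitinase, which cuts the polymer. It stood at 255 FPKM in Yki+Tai, 112 in Yki+Tai-IR, 113 in Yki and 130.5 in GFP, so Yki+Tai alone was above the control. Its ratio of Yki+Tai to Yki was 2.25 (2.12 to 2.39), to Yki+Tai-IR 2.27 (2.14 to 2.41) and to GFP 1.95 (1.84 to 2.07). Yki+Tai-IR and Yki did not differ beyond counting error, with a ratio of 0.991 (0.921 to 1.07). The level of Cht2 was 2.54 times that of kkv in Yki+Tai, but 1.66 times in Yki+Tai-IR, 1.44 in Yki and 1.501 in GFP. CG13921 overlaps Cht2 by 63 nt on the other strand and was at 33.4 FPKM in Yki+Tai, 23.0 in Yki+Tai-IR, 20.5 in Yki and 29.4 in GFP.

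Counted over the 8 genes, Yki against GFP gave 1 gene at least 2-fold higher, obst-E, where 1.86% of all 7806 genes were higher, and 0 lower, where 3.05% were. The median difference of the 8 was 0.018 on the log2(FPKM + 1) scale, against -0.0036 over all genes. Leaving aside obst-E, the members lay between Cht2 at -0.20 and serp at 0.53. Of the 8, 4 were above 0 and 4 below.

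In Yki+Tai against Yki, Cht2 was the 1 of 8 past the limit upwards, beside a background of 3.45%, and 0 were lower, beside 2.10%. The median of the 8 was 0.33, against -0.0017 over all genes. The 5 members above 0 were Cht2, mmy, verm, kkv and serp, and the 3 below were knk, obst-E and obst-A.

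In Yki+Tai-IR against Yki, obst-E was the 1 of 8 past the limit upwards, beside 3.19% of all genes, and 0 were lower, beside 0.922%. The median of the 8 was 0.026, against 0.0074 over all genes, and the 7 members other than obst-E lay between kkv at -0.22 and verm at 0.27. This comparison and the one before share the Yki library.

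In Yki+Tai against Yki+Tai-IR, 1 of 8 passed it upwards, Cht2, beside 3.72%, and 1 downwards, obst-E, beside 4.43%. The median of the 8 was 0.42, against -0.015 over all genes. In each comparison a single gene of 8 past the limit in a direction is too few to set against the background share.

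**Figure D2:**
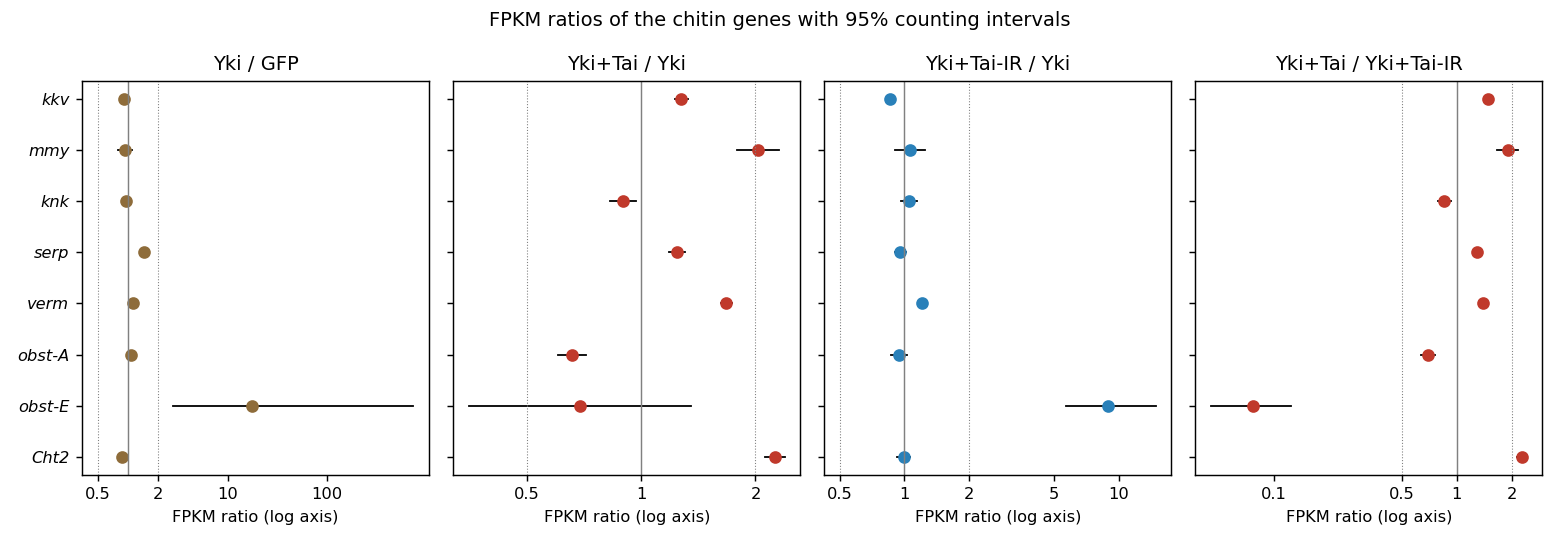
FPKM ratio (horizontal log axis, scaled for each panel) of the 8 chitin genes in the 4 comparisons; points are ratios, bars are 95% intervals for counting error only, the solid line marks a ratio of 1 and dotted lines 0.5 and 2. In Yki+Tai against Yki the genes spread from 0.658 (obst-A) to 2.25 (Cht2), while in Yki+Tai-IR against Yki all but obst-E (8.97) lie between 0.859 and 1.20.

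Transcripts of compartment genes differed between Yki+Tai and Yki. The posterior genes en, inv and hh had ratios of Yki+Tai to Yki of 1.94 (1.77 to 2.12), 2.1997 (2.02 to 2.40) and 1.33 (1.22 to 1.46), and the anterior gene ci one of 0.367 (0.346 to 0.389). The ratio of mmy lies between those of en and inv, that of Cht2 just above inv with overlapping intervals, and that of verm between hh and en. For kkv and serp, the intervals overlap that of hh. The ratios of obst-A, obst-E and knk lie below 1 and above that of ci. The interval of obst-E (0.352 to 1.35), however, includes both 1 and the ratio of ci. All 6 hemocyte markers (Hml, nimC1, He, Pxn, eater and srp) were also highest in Yki+Tai, summing to 30.2 FPKM there, 5.33 in Yki+Tai-IR, 4.58 in Yki and 8.43 in GFP. The summed tracheal markers trh, btl, dys and wat were at 43.6 FPKM in Yki+Tai, 36.6 in Yki+Tai-IR, 33.4 in Yki and 35.5 in GFP. Most of that sum was trh. The 5 fat body genes summed to 9.72 FPKM in Yki+Tai, 17.5 in Yki+Tai-IR, 14.4 in Yki and 20.2 in GFP. Among them Lsp2 and Fbp1 were highest in GFP. Lsp1alpha, Lsp1beta and Lsp1gamma were highest in Yki+Tai-IR, though not above Yki beyond counting error. The 4 myoblast genes summed to 12.6 FPKM in Yki+Tai, 34.1 in Yki+Tai-IR, 21.6 in Yki and 56.6 in GFP. The part of compartment size, blood cells, trachea, fat body or myoblasts in the chitin gene values was not tested.

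**Figure D3:**
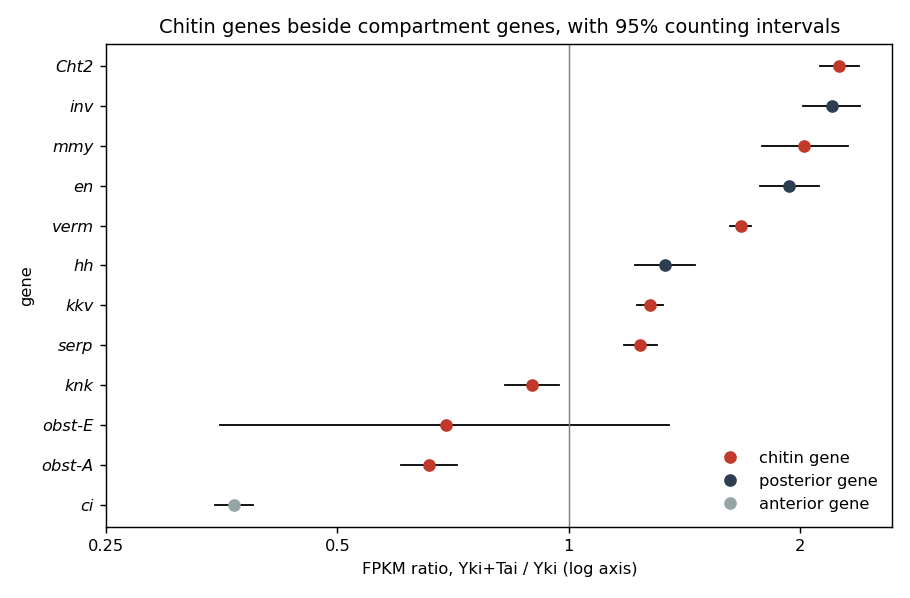
FPKM ratio of Yki+Tai to Yki (horizontal log axis) for the 8 chitin genes, the posterior genes en, inv and hh, and the anterior gene ci, ordered by ratio; bars are 95% counting intervals. Cht2 (2.25) and mmy (2.03) lie beside inv (2.1997) and en (1.94). No chitin gene has a ratio as low as ci (0.367), though the interval of obst-E (0.352 to 1.35) reaches it.

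The other genes of the pathway were taken from 8 lists with 41 genes, of which 26 passed the filter on low values. In Yki against GFP, 2 of the 26 passed the limit upwards and 1 downwards, beside 1.86% and 3.05% of all 7806 genes. In Yki+Tai against Yki the counts were 2 and 1, beside 3.45% and 2.10%. In Yki+Tai-IR against Yki they were 3 and 0, beside 3.19% and 0.922%, and in Yki+Tai against Yki+Tai-IR 3 and 5, beside 3.72% and 4.43%. The medians of the 26 in the same order were -0.043, 0.38, 0.012 and 0.053 on the log2(FPKM + 1) scale, against -0.0036, -0.0017, 0.0074 and -0.015 over all genes.

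Upstream of mmy, none of the 7 tested supply genes passed 2-fold in the 3 comparisons that include Yki, and their median in Yki+Tai against Yki was 0.25. Of the paired genes for glutamine:fructose-6-phosphate aminotransferase, which commits sugar to this pathway, Gfat2 was at 72.1 FPKM in Yki+Tai, 42.9 in Yki+Tai-IR, 46.3 in Yki and 54.2 in GFP. Its paralogue Gfat1 was at 200.4 FPKM in Yki+Tai, 181 in Yki+Tai-IR, 195 in Yki and 209 in GFP, with little spread. Thus Gfat2, which is named here after its values were seen, and mmy had their highest level in Yki+Tai. CG1969, the acetyltransferase gene of the step between, was at 92.7 FPKM in Yki+Tai, 94.9 in Yki+Tai-IR, 103.9 in Yki and 107 in GFP. For CG1969, Yki+Tai was at 0.8925 times Yki (0.805 to 0.990). It did not differ from Yki+Tai-IR beyond counting error, with a ratio of 0.977 (0.875 to 1.09). The mutase gene nst, given to complete the route, was at 51.7 FPKM in Yki+Tai, 42.9 in Yki+Tai-IR, 43.4 in Yki and 51.2 in GFP. The trehalase gene Treh, which splits the blood sugar trehalose, went the other way from mmy, at 11.6 FPKM in Yki+Tai, 27.4 in Yki+Tai-IR, 20.9 in Yki and 21.6 in GFP. Yki+Tai was thus at 0.421 times Yki+Tai-IR (0.368 to 0.482), past the 2-fold limit.

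Of the genes that act with the synthase, exp was low only in GFP. It is listed in the table as CG13188 and is needed with kkv for chitin deposition. It stood at 11.1 FPKM in Yki+Tai, 10.7 in Yki+Tai-IR, 8.10 in Yki and 1.94 in GFP. All 3 libraries with Yki were above GFP, and Yki was at 4.17 times GFP (2.97 to 5.98), whereas kkv was at 0.905 times (0.865 to 0.947). Its relative reb averaged 0.616 FPKM and the second synthase gene CS-2 0.0369 FPKM, both too low to be counted. The organiser gene rtv was at 32.8 FPKM in Yki+Tai, 35.2 in Yki+Tai-IR, 39.97 in Yki and 29.6 in GFP, and dp, a giant matrix protein gene, at 3.94, 3.42, 4.57 and 6.35 FPKM in the same order.

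Other deacetylase genes split as the members did not. Cda4 was at 190.1 FPKM in Yki+Tai, 174 in Yki+Tai-IR, 134 in Yki and 132 in GFP. Like verm, it was above Yki in both Tai libraries and near GFP in Yki. Cda5 was at 2.65 FPKM in Yki+Tai, 9.27 in Yki+Tai-IR, 4.91 in Yki and 1.56 in GFP. Its order of libraries, with Yki+Tai-IR highest, then Yki, Yki+Tai and GFP, is that of obst-E. For obst-E, however, Yki and Yki+Tai did not differ beyond counting error. Yki was at 3.14 times GFP for Cda5 (2.26 to 4.43), and Yki+Tai at 0.286 times Yki+Tai-IR (0.229 to 0.354).

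In the obstructor family, which includes obst-A and obst-E, 2 of 7 further genes were measured. Gasp, a tracheal and cuticular chitin-binding protein gene, was at 202 FPKM in Yki+Tai, 206 in Yki+Tai-IR, 119.5 in Yki and 90.9 in GFP. It was at nearly one level in both Tai libraries, with a ratio of 0.977 (0.925 to 1.03), and above Yki in both. obst-B was at 125 FPKM in Yki+Tai, 89.2 in Yki+Tai-IR, 89.6 in Yki and 66.3 in GFP, an order like that of serp in that Yki+Tai was highest and GFP lowest. The family therefore held a gene lowest in Yki+Tai (obst-A), while obst-E, Gasp and obst-B were lowest in GFP. Of these, obst-E was highest in Yki+Tai-IR by far.

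The chitinase genes did not move as one. Besides Cht2, Cht5 was at 95.3 FPKM in Yki+Tai, 29.5 in Yki+Tai-IR, 40.8 in Yki and 47.3 in GFP, which is 2.34 times Yki (2.15 to 2.54) and 3.23 times Yki+Tai-IR (2.93 to 3.58). Cht6 was at 32.2 FPKM in Yki+Tai, 12.5 in Yki+Tai-IR, 16.7 in Yki and 10.1 in GFP. The same present-day gene has another row in the table, CG15313, at 44.5 FPKM in Yki+Tai, 14.2 in Yki+Tai-IR, 14.3 in Yki and 15.2 in GFP, also highest in Yki+Tai. The gene Cht7 was opposite to Cht2, at 6.20 FPKM in Yki+Tai, 26.2 in Yki+Tai-IR, 25.7 in Yki and 18.02 in GFP, and its Yki+Tai level was 0.241 times that of Yki (0.211 to 0.276). Cht3, now named Cht10, was the highest chitinase on average and was lower in every library with Yki, at 184 FPKM in Yki+Tai, 177 in Yki+Tai-IR, 237 in Yki and 296 in GFP. Of the 9 listed chitinase genes, 4 were under 1 FPKM in every library.

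Hexosaminidases are a class that includes enzymes of the last step of chitin breakdown. Of the listed genes, Hexo2 was at 3.92 FPKM in Yki+Tai, 0.867 in Yki+Tai-IR, 0.701 in Yki and 2.62 in GFP. It passed the limit downwards in Yki against GFP, with a ratio of 0.267 (0.131 to 0.509), and upwards in Yki+Tai against Yki, at 5.59 (3.11 to 10.9), and both ratios use the same low Yki value. Hexo1 was at 152 FPKM in Yki+Tai, 103 in Yki+Tai-IR, 89.7 in Yki and 137 in GFP, the same order of libraries. The third gene, fdl, was at 31.9 FPKM in Yki+Tai, 27.1 in Yki+Tai-IR, 32.4 in Yki and 28.1 in GFP, with little spread.

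Idgf genes encode chitinase-like growth factors of imaginal discs that lack chitinase activity. Of 4 tested, 3 passed the limit upwards in Yki+Tai-IR against Yki, where 3.19% of all genes did. Idgf3 was at 1.51 FPKM in Yki+Tai, 6.87 in Yki+Tai-IR, 0.511 in Yki and 0.519 in GFP, so that Yki+Tai-IR was at 13.5 times Yki (6.25 to 34.5). Idgf6, listed as Chit, was at 20.3 FPKM in Yki+Tai, 45.8 in Yki+Tai-IR, 15.6 in Yki and 19.4 in GFP. Idgf2 was at 1.71 FPKM in Yki+Tai, 3.35 in Yki+Tai-IR, 0.858 in Yki and 2.54 in GFP, and its Yki value rests on 10 estimated fragments. The most abundant of them, Idgf4, was flat, at 196 FPKM in Yki+Tai, 181 in Yki+Tai-IR, 198 in Yki and 202 in GFP. As with obst-E, the high library of Idgf2, Idgf3 and Idgf6 was Yki+Tai-IR. The part of other tissues, whose markers are given above, in these Idgf values was not tested.

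**Figure D4:**
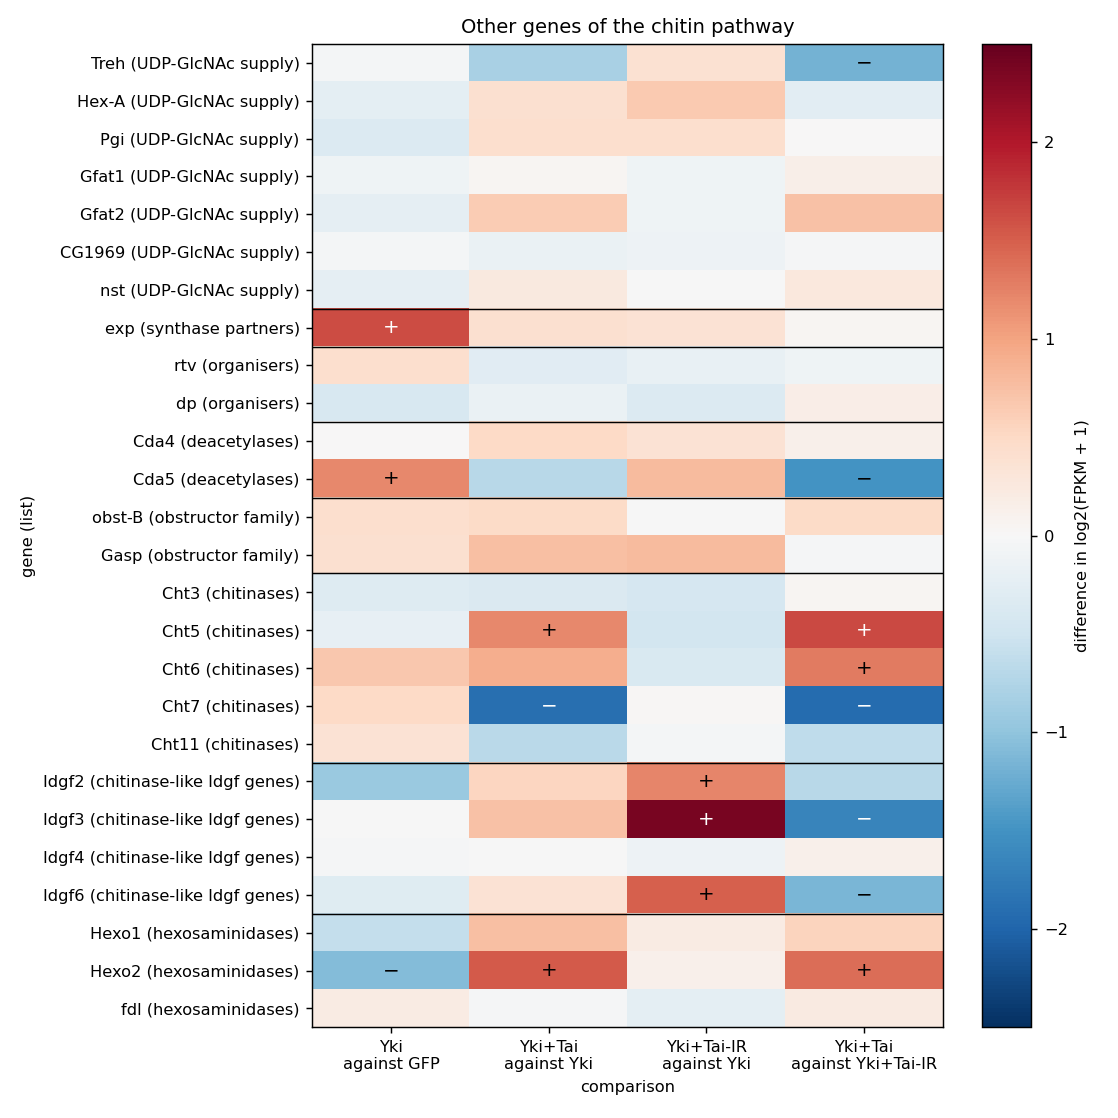
Difference in log2(FPKM + 1) (colour, red higher and blue lower in the first-named library) of the 26 tested pathway genes other than the 8 members (rows, by list) in the 4 comparisons (columns); a plus or minus sign marks a difference of at least 1. Cht5 and Cht7 take opposite colours in Yki+Tai against Yki, and Idgf2, Idgf3 and Idgf6 are marked higher in Yki+Tai-IR against Yki.

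Among themselves the members fell into few like pairs when log2(FPKM + 1) profiles were centred over the 4 libraries and compared by Euclidean distance. The nearest pair was mmy and Cht2, at 0.213, followed by knk and obst-A at 0.321 and serp with verm at 0.333. The gene obst-E was at least 3.12 from each other member. These distances rest on 4 libraries and are a description only.

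Set against all 7806 genes, the profile nearest to that of kkv was ome, at a distance of 0.0274, then CG8866 (now Aduk) at 0.0478 and C3G at 0.048. A total of 337 genes lay within 0.2 of kkv, so its profile was a common one. The profile of obst-E had no gene within 0.2. The nearest were CG42717 at 1.20, CG30196 at 1.21 and CG42304 at 1.25. CG30196 was at 5.84 FPKM in Yki+Tai, 39.3 in Yki+Tai-IR, 8.37 in Yki and 4.74 in GFP. Like obst-E, it was highest in Yki+Tai-IR, which follows from its being picked for a near profile.

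**Figure D5:**
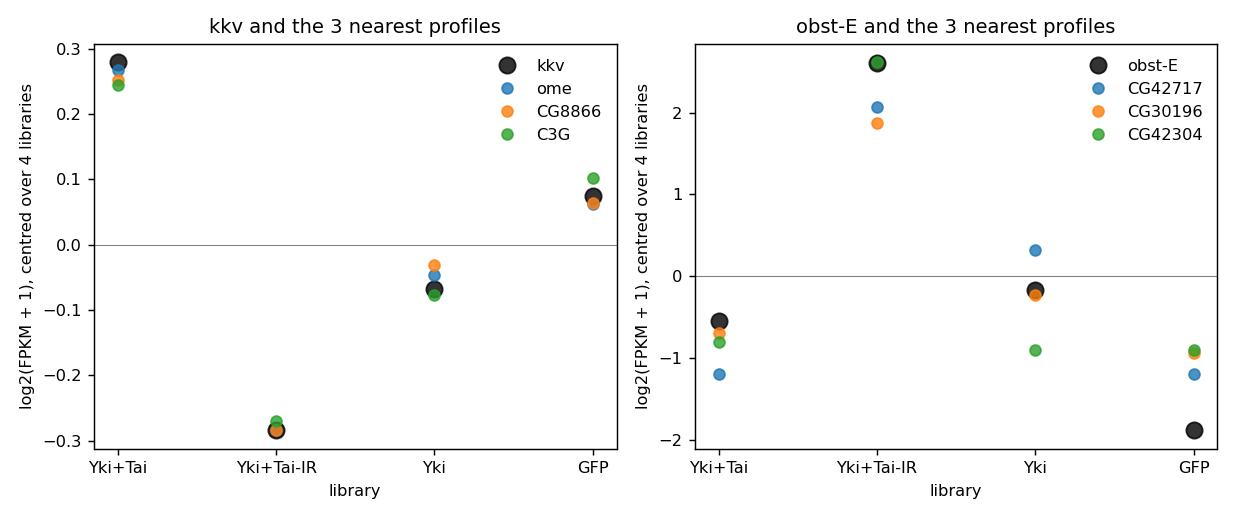
log2(FPKM + 1), centred over the 4 libraries (vertical axis, scaled for each panel), of kkv with its 3 nearest profiles and of obst-E with its 3 nearest; each point is 1 library. The points of kkv and its neighbours nearly coincide (distances of at most 0.048). Those of obst-E and its neighbours, which were picked for near profiles, share the high Yki+Tai-IR value and spread elsewhere.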

How the data were processed

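The authors deposited 1 table of FPKM values for 13990 genes in 4 pooled wing disc libraries. Per the submitters' processing notes the tools were Cuffdiff 2.2.1, TopHat2 2.0.12 and CASAVA 1.4, with build dm6; for annotation and options, nothing is given in the sources used here. Per the labels' protocols, RNA was depleted of ribosomal RNA before a TruSeq RNA version 2 library. FPKM depends on how Cuffdiff shared fragments among isoforms and overlapping genes, and an exact 0 can be a failed estimate.

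Differences were taken as log2(FPKM + 1), a scale that understates low genes, over the 7806 genes averaging at least 1 FPKM, after leaving out 314 small-RNA genes. Depth was estimated from single-transcript genes: at the best depth, with 210 or 220 nt subtracted from transcript length, 72.1% to 75.0% of low values lay within 0.08 of a whole number of fragments, against 16.0% by chance. Fragments of a member used its shortest Ensembl release 115 transcript. Counting, depth and interval steps were tested on simulated data. Symbols were matched to the annotation for 13734 genes, 3205 by an older symbol.

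The members and lists were chosen with earlier results of these data known. Named genes were all members, pathway genes past 2-fold or among the 2 most abundant of their list, the 3 nearest profiles of kkv and of the member with the widest range, and the transgene and compartment genes. Outside this rule, Gfat2, nst and CS-2 were added after their values were seen, and cell type markers, overlapping genes and a further Cht6 row are given beside the results they touch. Alternatives were 2 other pseudocounts, 2 filters, 2 rescalings and a 1.5-fold limit. Promoter and protein sequences were not used here. The tools were pandas 2.3.3, scipy 1.17.1 and numpy 2.4.6 under Python 3.11.15, with figures from matplotlib 3.10.9.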

Additional observations from a re-analysis of the deposited data

How the results depend on the processing

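No paired analysis was possible because each genotype has 1 library, and for the same reason no library could be left out of a group. Over 192 member differences recomputed with other pseudocounts, filters and rescalings, 187 moved by less than their counting interval and 5 by more, and 0 past 2-fold changed sign. The 2 filters cannot change the difference of a gene that is kept, so their share of the 192 could not move. For obst-E in Yki against GFP the interval is too wide to be a check. Its difference ranged from 0.596 to 3.488 and still counted as not moved. Of the 8 genes, the count at least 2-fold higher in Yki against GFP was 0 with a pseudocount of 5 instead of 1, since obst-E is a low gene there. In Yki+Tai against Yki it was 2 with a pseudocount of 0.1, when mmy joined Cht2, and 3 with a 1.5-fold limit, which also counted 1 gene as lower. With the 1.5-fold limit, 2 genes were higher in Yki+Tai against Yki+Tai-IR. The difference of obst-E between Yki+Tai-IR and Yki was 2.78, and ranged from 1.95 to 3.12 over the alternatives. That of knk in the same comparison, 0.064, changed sign to -0.0075 when libraries were rescaled to one FPKM sum, and the median of the 8 genes there was -0.046 in place of 0.026. Of all genes, 145 were higher and 238 lower in Yki against GFP, 269 and 164 in Yki+Tai against Yki, 249 and 72 in Yki+Tai-IR against Yki, and 290 and 346 in Yki+Tai against Yki+Tai-IR. In the same order these counts were 58 and 96, 129 and 65, 89 and 27, and 154 and 149 with a pseudocount of 5. At a mean of 5 FPKM or more they were 92 and 129, 134 and 111, 99 and 38, and 174 and 200, over fewer genes. With a 1.5-fold limit they were 503 and 524, 654 and 578, 508 and 271, and 651 and 833. A pseudocount of 0.1 gave 235 higher in Yki against GFP, 247 lower in Yki+Tai against Yki and 150 lower in Yki+Tai-IR against Yki. Depth limits obst-E most, with 1 estimated fragment in GFP.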
